A study of Danio rerio with 6 samples.

Results

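The genes described here are connexins and genes of adult stripe formation in the zebrafish, in a melanoma cell line and in a BRAF inhibitor resistant line derived from it. They were taken from the table of counts per gene by name: cx41.8, cx39.4, cx43, cx43.4, cx30.3, cx44.2, kcnj13 and igsf11, with 1 further connexin. All 9 had a row among the 27126 rows of the table, and 8 of the 9 had enough counts to be tested. RNA was sequenced from 3 independent cultures of ZMEL1 and 3 of ZMELR1, numbered 1 to 3 in each line. ZMEL1 was grown from a skin melanoma of 1 fish that expressed oncogenic human BRAF under the mitfa promoter, was homozygous mutant for p53 and for mitfa, and carried an mitfa minigene with GFP as a rescue cassette. ZMELR1 is the culture that regrew from ZMEL1 after prolonged exposure to a BRAF inhibitor. For RNA isolation ZMEL1 was kept in DMSO and ZMELR1 in PLX4032 (vemurafenib) at 1 μM, so that the history of selection and the drug in the medium cannot be told apart. Both lines therefore come from the same tumor with its transgenes and its p53 and mitfa mutations, and each is a single line.

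Connexins are membrane proteins that assemble in hexamers, and hexamers of neighboring cells dock into gap junctions, through which ions and small molecules pass from cell to cell. In the zebrafish skin, stripes form by short-range interactions of black melanophores, yellow xanthophores and silvery iridophores, and several stripe mutants carry lesions in membrane proteins. The leopard gene cx41.8 and the luchs gene cx39.4 encode connexins of melanophores and xanthophores that form joint channels. The obelix (jaguar) gene kcnj13 encodes the inwardly rectifying potassium channel Kir7.1, and the seurat gene igsf11 encodes an adhesion protein of the immunoglobulin superfamily. The other connexins of the group are known mainly from other organs, cx43 for example from the growth of the fin rays.

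Levels are given in CPM, counts in each 1e6 after TMM scaling, and a log2 fold change is ZMELR1 over ZMEL1. Rose and fell are used for an adjusted p under 0.05 in edgeR's quasi-likelihood test over 16589 genes. The total count was 61535449 to 83741911 in 5 libraries and 42591832 in ZMELR1 replicate 3. That library also stood apart in transcripts of cell division, here including genes of DNA replication. The median of 15 such genes, relative to each gene's mean, was -1.5 on the log2 CPM scale, against -0.17 and 0.23 in ZMELR1 replicates 1 and 2 and 0.27 to 0.61 in ZMEL1. By this median all ZMELR1 libraries were below those of ZMEL1, replicate 2 (0.23) only by a small margin. A median does not show that each of these transcripts was lower. The 7 melanophore and neural crest markers in the table had a summed level of 880 to 997 CPM in ZMEL1 and 1460 to 1620 CPM in ZMELR1, led by mitfa and sox10. The mean of tyrp1b, the next highest in ZMEL1, was 5.69 CPM there, and slc24a5 was under 1 CPM in every ZMEL1 library. In ZMELR1 tyrp1b rose 3.94-fold and slc24a5 15.6-fold, and no other marker of this list passed. With the block mitfa, sox10, tyr and pmela also passed as higher, and dct did not. Of 6 muscle markers none reached 1 CPM, and 3 of 5 endothelial and 5 of 6 leukocyte markers stayed under 1 CPM in every library. The muscle marker myod1 fell 4.52-fold, from a mean of 0.197 CPM to 0.04 CPM. Every ZMELR1 library was under the level of the filter on low counts, so myod1 was tested only because ZMEL1 was high. Markers of other cells were present or moved: 7 of keratinocytes and epithelium summed to 2050 to 2870 CPM in ZMEL1 and 2630 to 3310 CPM in ZMELR1. Nearly all of this was krt8, with means of 2430 and 3030 CPM, while krt4 fell 4.38-fold. In this list epcam and tp63 stayed under 1 CPM in every library. With the block krt5 and cldni also passed as lower (log2 fold changes -1.94 and -1.82), and krt8, cdh1 and tp63 did not pass. Of 7 iridophore markers (111 to 174 and 53.2 to 87.0 CPM) alx4a fell 19.2-fold, and no other passed, also not with the block. For ltk, fhl2a, pnp4a and tfec the lines overlapped (log2 fold changes -0.79, -0.45, -0.24 and -0.01). For gbx2 the log2 fold change was 2.55, through ZMELR1 replicate 3. Both pnp4a and alx4b stayed under 1 CPM in every library. Of 7 xanthophore markers (43.5 to 72.0 and 60.3 to 111 CPM) xdh, which was under 1 CPM in every library, fell 5.75-fold. Its ZMELR1 replicates 2 and 3 were under the level of the filter, so xdh needed its ZMEL1 libraries to be tested. In the same list scarb1, csf1ra and slc2a15b had all ZMELR1 libraries above ZMEL1 (log2 fold changes 1.15, 1.53 and 0.83) but did not pass. With the block scarb1 did (edgeR adjusted p = 0.0386). For gch2 (-1.18) and pax7a (0.25) the lines overlapped. Of 6 glia markers (6.80 to 10.9 and 8.13 to 12.1 CPM) mbpa rose 4.48-fold, from a mean of 0.459 CPM to 2.07 CPM. For plp1a, the highest of this list, and for gfap the lines overlapped (log2 fold changes -0.04 and 0.05). Too low to be tested were mpz, egr2b and foxd3. Of these, mpz overlapped, egr2b had all ZMELR1 libraries below ZMEL1, and foxd3 had 0 counts in every library. The part of such cells in the values of the stripe genes was not tested. In RNA of whole cultures, fewer cells of a type and less RNA per cell cannot be told apart.

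Among the members, kcnj13 rose in ZMELR1 and cx43 fell. The remaining 6 tested members did not pass the test, and their log2 fold changes lay between -0.51 and 1.21. Thus 2 of 8 members were called, against 6.29% of all genes tested (3.62% higher and 2.68% lower). The median log2 fold change was 0.24 for the 8 members and 0.02 for all genes. The CPM of the lines did not overlap in 5 members, among them kcnj13 and igsf11 (higher) and cx43 and cx43.4 (lower), against 31.4% of all genes. Libraries of the same replicate number deviated alike from the mean of their line in these data, so the test was also made with the number as a block. The labels do not say that the numbers are pairs. With the block 6 of 8 members passed, 4 higher (with kcnj13, igsf11 and cx39.4 among them) and 2 lower (cx43 and cx43.4), against 24.9% of all genes. Within the replicate numbers, 6 of 8 members differed in the same direction 3 times, as did 63% of all genes. These members were chosen with earlier results of these data known, so the counts describe them and are not a test of the group.

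**Figure D1:**
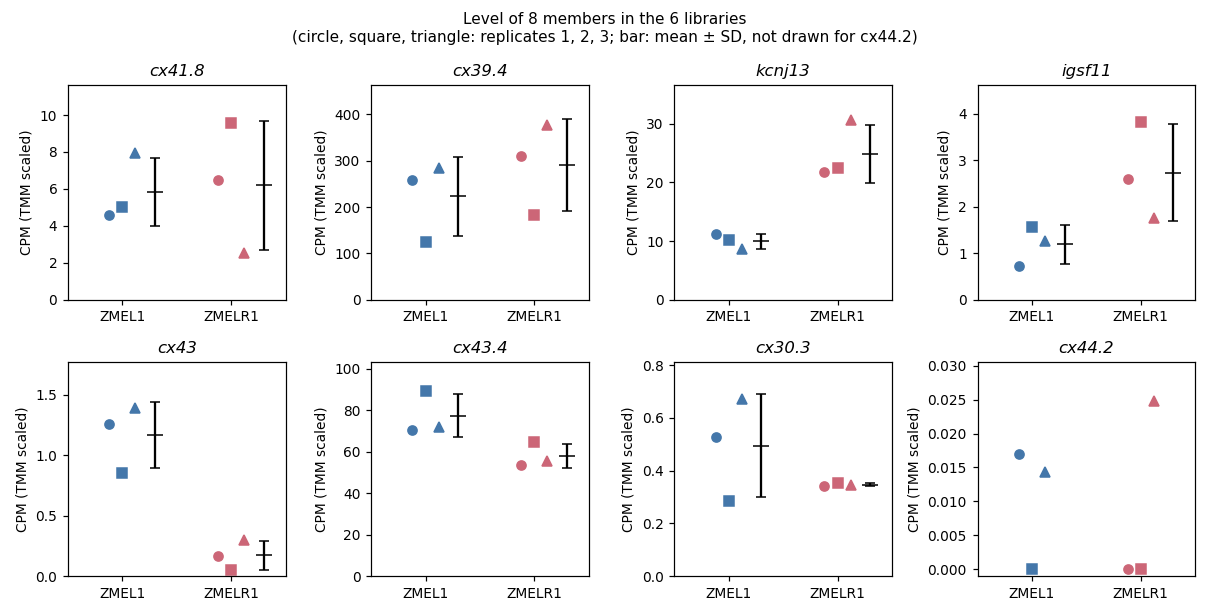
Level of 8 members (y axis, CPM with TMM scaling, a separate linear scale for each gene) in ZMEL1 (blue) and ZMELR1 (red), with replicates 1, 2 and 3 as circles, squares and triangles and, as a black bar, the mean ± SD of 3 libraries, not drawn for cx44.2, which had at most 1 count in a library. The 3 ZMELR1 libraries lie above the 3 of ZMEL1 for kcnj13 and igsf11, and below them for cx43 and cx43.4.

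The pair of stripe connexins was expressed in both lines. For cx39.4 the level was 258, 125 and 285 CPM in ZMEL1 replicates 1, 2 and 3 and 310, 182 and 378 CPM in ZMELR1. The lines overlapped, but replicate 2 was the lowest library of each line and each ZMELR1 library stood above the ZMEL1 library of its number. The log2 fold change was 0.38 (standard error 0.372, 95% interval -0.49 to 1.25, edgeR adjusted p = 0.568, and 0.0485 with the block). Within the numbers the log2 CPM differences were 0.26, 0.55 and 0.41.

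For cx41.8 the level was 4.57, 5.02 and 7.95 CPM in ZMEL1 and 6.47, 9.56 and 2.55 CPM in ZMELR1 replicates 1, 2 and 3. Both the highest and the lowest value were thus found in ZMELR1, and the lowest in replicate 3, the library that was also low in transcripts of cell division. Within the replicate numbers the log2 CPM differences of cx41.8 were 0.50, 0.93 and -1.63. The log2 fold change was 0.09 (standard error 0.470, 95% interval -1.01 to 1.19, edgeR adjusted p = 0.925), an interval that still holds a doubling or a halving. Without replicate 3 of both lines it was 0.70 (edgeR adjusted p = 0.184). The part of the cell division transcripts in these values was not tested. There were 1.77, 4.03 and 2.79 counts of cx41.8 for 100 counts of cx39.4 in ZMEL1 and 2.09, 5.25 and 0.675 in ZMELR1. This ratio is a comparison between libraries and not of the levels of the genes, whose lengths differ. Its mean was 2.86 ± 1.13 (SD, n = 3) in ZMEL1 and 2.67 ± 2.34 (SD, n = 3) in ZMELR1 (two-sided exact permutation test, p = 1, the smallest possible p being 0.1).

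The potassium channel gene kcnj13 rose. Its level was 11.2, 10.1 and 8.56 CPM in ZMEL1 replicates 1, 2 and 3 and 21.7, 22.4 and 30.6 CPM in ZMELR1. The lowest ZMELR1 library was well above the highest of ZMEL1, and replicate 3 was the lowest library in ZMEL1 and the highest in ZMELR1. The mean went from 9.94 ± 1.31 to 24.9 ± 4.96 CPM (SD, n = 3), and the fold fitted by edgeR was 2.50-fold higher (log2 fold change 1.32, standard error 0.215, 95% interval 0.82 to 1.83, edgeR adjusted p = 0.0172). By p it was number 380 of the genes tested. The call held without ZMELR1 replicates 1, 2 and 3 (edgeR adjusted p = 0.05 when rounded, 0.0458 and 0.0218), the first of these at the threshold. It was lost without ZMEL1 replicates 1, 2 and 3 (edgeR adjusted p = 0.0568, 0.0713 and 0.0671), at log2 fold changes of 1.41, 1.31 and 1.19. In the GRCz12tu assembly kcnj13 overlaps gal3st2 and a further gene, and cx30.3, cx39.4, cx43.4 and igsf11 overlap other genes too. Reads shared with an overlapping gene cannot be assigned without strand, whose use in counting is not given in the sources used here. No counted row bears the name gal3st2, so whether it was among the counted gene models is not known.

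The adhesion gene igsf11 had 0.731, 1.56 and 1.27 CPM in ZMEL1 and 2.60, 3.82 and 1.76 CPM in ZMELR1 replicates 1, 2 and 3. The lines did not overlap, although ZMELR1 replicate 3 was only slightly above ZMEL1 replicate 2. The log2 fold change was 1.21 (standard error 0.405, 95% interval 0.26 to 2.16) and did not pass the test (edgeR adjusted p = 0.128, and 0.0404 with the block). Within the numbers the log2 CPM differences of igsf11 were 1.79, 1.28 and 0.46, and those of kcnj13 were 0.96, 1.14 and 1.83. For each 100 counts of kcnj13 there were 6.54, 15.4 and 14.9 counts of igsf11 in ZMEL1 and 12, 17.1 and 5.74 in ZMELR1. This ratio overlapped between the lines, with means of 12.3 ± 4.97 and 11.6 ± 5.68 (SD, n = 3, two-sided exact permutation test, p = 0.9, smallest possible 0.1).

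Of the connexins not known for stripes, cx43 fell. The gene, named gja1b in RefSeq, is the zebrafish counterpart of the widespread mammalian connexin 43. Replicates 1, 2 and 3 held 74, 60 and 97 counts of cx43 in ZMEL1 and 10, 5 and 12 in ZMELR1. As levels these were 1.26, 0.857 and 1.39 CPM and 0.171, 0.0551 and 0.297 CPM, so that every ZMELR1 library held less than every ZMEL1 library. The mean went from 1.17 ± 0.276 to 0.174 ± 0.121 CPM (SD, n = 3), and the fold fitted by edgeR was 7.49-fold lower (log2 fold change -2.90, standard error 0.534, 95% interval -4.16 to -1.65, edgeR adjusted p = 0.0252). Within the numbers the log2 CPM differences were -2.67, -3.37 and -2.11. With 5 counts, ZMELR1 replicate 2 was under the level of the filter on low counts, so cx43 needed its ZMEL1 libraries to pass. The direction of its call is thus partly set by the filter. With 1 library left out at a time the log2 fold change stayed between -3.46 and -2.36, and the call held for ZMELR1 replicate 3 (edgeR adjusted p = 0.019) but for no other. Without ZMEL1 replicate 1, 2 or 3 the edgeR adjusted p was 0.0884, 0.0588 or 0.0763, and without ZMELR1 replicate 1 or 2 it was 0.0996 or 0.0552. Fibroblasts, another cell type known for this connexin, were followed by 6 markers in the table, of which 4 were tested and none passed without the block. With the block dcn was lower (log2 fold change -1.22, edgeR adjusted p = 0.00951) and col1a2 higher (0.87, 0.0364). Their summed level was 78.4 to 107 CPM in ZMEL1 and 55.2 to 100 CPM in ZMELR1, and col1a1a and lum stayed under 1 CPM in every library. The 5 endothelial markers summed to 1.5 to 2.21 CPM in ZMEL1 and 1.06 to 1.54 CPM in ZMELR1. Of these fli1a fell, from 1.03 ± 0.269 to 0.199 ± 0.0390 CPM (SD, n = 3, edgeR adjusted p = 0.0138). With 9 counts, its ZMELR1 replicate 1 was under the level of the filter, so fli1a needed its ZMEL1 libraries to be tested. The other marker tested, egfl7, did not pass, and its lines overlapped (log2 fold change 0.37). In every library cdh5, kdrl and tie1 stayed under 1 CPM. The part of such cells in the fall of cx43 was not tested.

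The gene cx43.4 (gjc4b), which is known in the embryo for left-right patterning, had 70.5, 89.5 and 72.1 CPM in ZMEL1 and 53.8, 64.5 and 55.4 CPM in ZMELR1 replicates 1, 2 and 3. The lines did not overlap, replicate 2 was the highest library of each line, and the differences within the numbers were nearly equal at -0.39, -0.47 and -0.38 on the log2 CPM scale. The log2 fold change was -0.42 (standard error 0.166, 95% interval -0.81 to -0.03, edgeR adjusted p = 0.18 unblocked and 0.0354 blocked). The counts of cx43 for each 100 counts of cx43.4 were 1.78, 0.958 and 1.92 in ZMEL1 and 0.318, 0.0854 and 0.536 in ZMELR1, and so did not overlap either (two-sided exact permutation test, p = 0.1, the smallest possible with 3 libraries against 3). Since cx43 changed far more than cx43.4, this ratio mostly repeats the fall of cx43 and is no separate result.

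The beta connexin cx30.3 (gjb8) had 0.527, 0.286 and 0.672 CPM in ZMEL1 and 0.342, 0.352 and 0.347 CPM in ZMELR1. Its ZMELR1 libraries were within the range of ZMEL1 (log2 fold change -0.51, standard error 0.381, 95% interval -1.40 to 0.39, edgeR adjusted p = 0.449). The gamma connexin cx44.2 (gjc4a.1) had 1, 0 and 1 counts in ZMEL1 and 0, 0 and 1 counts in ZMELR1, was removed by the filter on low counts, and allows no comparison at this depth.

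**Figure D2:**
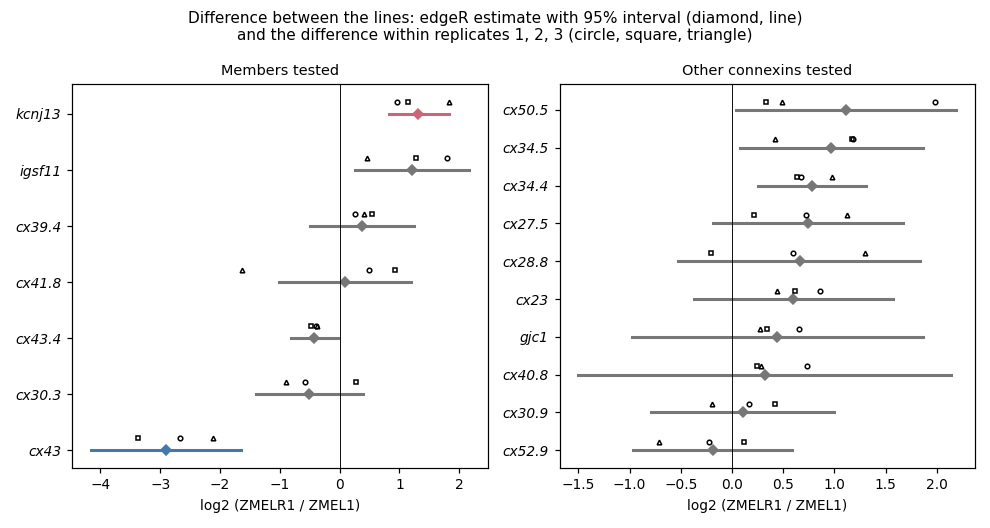
Difference between the lines (x axis, log2 of ZMELR1 over ZMEL1) for 7 members tested (left) and the 10 other connexins tested (right), where diamonds and lines are the edgeR log2 fold change and its 95% interval, red for a gene that rose, blue for one that fell and grey for one that did not pass, and the small open circles, squares and triangles are the log2 CPM differences within replicates 1, 2 and 3. Only kcnj13 and cx43 are colored, and the triangle of cx41.8 at -1.63 lies far from its other points at 0.50 and 0.93.

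In the whole connexin family few genes passed. Of 33 connexin rows, not counting cx35b, which the search by name did not take, 16 were tested and 17 were removed by the filter, with at most 17 counts in any library. Of the 16 only the member cx43 was called (6.25%, against 6.29% of all genes), and the median log2 fold change of the 16 was 0.41. Of 10 tested connexins that are not members, none was called by edgeR or limma-voom, 3 had an unadjusted p under 0.05 (as did 4032 of all 16589 genes), and 1 (cx34.4) was called by DESeq2 and with the block. Their log2 fold changes were positive in 9 of 10, against 8595 of all 16589 genes. Some of these rows, with as few as 4 counts in a ZMEL1 library, passed the filter only through their ZMELR1 libraries. Their positive sign is thus partly set by the filter. This also bears on the median and on the count under an unadjusted p of 0.05, so neither is a result about the family. Summed over the 33 rows the level was 375, 250 and 405 CPM in ZMEL1 and 439, 306 and 505 CPM in ZMELR1. The 7 connexin members held 93.0% to 95.7% of this sum, so the deposited connexin reads came almost entirely from the members.

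The 3 connexins of highest CPM outside the members were cx34.4, cx30.9 and cx40.8. For cx34.4 the level was 6.40, 7.80 and 7.72 CPM in ZMEL1 and 10.2, 12.1 and 15.3 CPM in ZMELR1, without overlap (log2 fold change 0.78, 95% interval 0.25 to 1.31, edgeR adjusted p = 0.0916, or blocked by number 0.0219). For cx30.9 the log2 fold change was 0.11 (95% interval -0.79 to 1.00). The level of cx40.8 was 0.629, 0.600 and 2.70 CPM in ZMEL1 and 1.06, 0.716 and 3.29 CPM in ZMELR1, and replicate 3 of each line thus stood above the other libraries (log2 fold change 0.32, 95% interval -1.50 to 2.14). Connexins next to members in the GRCz12tu assembly were nearly silent: cx44.1 (gja8b), the neighbor of cx41.8, had at most 4 counts in a library, cx32.2 (gja13.2), the neighbor of cx43, at most 1, and gja3, the neighbor of cx30.3, had 0 counts in all 6 libraries. Counts as low as these allow no comparison of the lines.

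Other genes whose mutants change the adult pigment pattern, or that act with them, came from a list of 26, of which 19 had a row and 14 were tested. Of the 14, kita rose and 13 did not pass, and the median log2 fold change was 0.15 (6.29% of all genes were called). The Kit receptor gene kita, needed for the early melanophores, went from 85.0, 93.8 and 116 CPM in ZMEL1 to 198, 253 and 163 CPM in ZMELR1, which did not overlap (log2 fold change 1.06, standard error 0.215, edgeR adjusted p = 0.035). That call was lost without each library other than ZMELR1 replicate 3 (edgeR adjusted p = 0.063 to 0.133) and with scaling by library size only (0.0597). The melanocyte regulator mitfa, of which the cassette and the mutant gene cannot be told apart by counts, stood at 519 ± 82.9 and 891 ± 58.6 CPM (SD, n = 3, log2 fold change 0.78, edgeR adjusted p = 0.059 unblocked and 0.0196 blocked). For csf1ra, the receptor needed by xanthophores, the level was 4.72, 6.17 and 4.0 CPM in ZMEL1 and 8.93, 8.35 and 25.8 CPM in ZMELR1. Its highest value was that of ZMELR1 replicate 3 (log2 fold change 1.53, standard error 0.471, edgeR adjusted p = 0.106), and without that library the log2 fold change was 0.80. The gap junction scaffold gene tjp1a, which is mutated in schachbrett, did not pass (log2 fold change 0.32, 95% interval -0.12 to 0.76), and the aquaporin gene aqp3a had at most 14 counts in a library and was not tested. With the block 5 of the 14 passed as higher and 1 as lower, against 12.9% and 12% of all genes.

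The last set held partners of the members: scaffolds of gap junctions, pannexins, enzymes of the polyamines, which are known to act on Kir channels and on cx41.8, and other Kir channels. Of 35 rows 18 were tested, and only panx2 rose (5.56%, against 6.29% of all genes). The pannexins are membrane proteins, as the connexins are, and form channels to the outside of a cell. Libraries held 7, 8 and 9 counts of panx2 in ZMEL1 and 21, 41 and 24 in ZMELR1, or 0.119, 0.114 and 0.129 CPM against 0.359, 0.451 and 0.594 CPM, without overlap. Every ZMEL1 library was under the level of the filter, so panx2 was tested only because ZMELR1 was high. The log2 fold change was 1.92 (standard error 0.350, edgeR adjusted p = 0.0248), and its call held only without ZMELR1 replicate 3 when libraries were left out (0.0375, and 0.0662 to 0.104 without the others). Its relative panx1b had 0.544, 0.214 and 0.557 CPM in ZMEL1 and 1.83, 0.969 and 1.88 CPM in ZMELR1 (log2 fold change 1.82, edgeR adjusted p = 0.0642 unblocked and 0.00803 blocked).

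Of the polyamine enzymes, the spermidine synthase gene srm, which is mutated in idefix, had 59.9, 62.4 and 61.2 CPM in ZMEL1 and 41.7, 53.5 and 57.7 CPM in ZMELR1. All of ZMELR1 lay below ZMEL1 by a small margin (log2 fold change -0.26, 95% interval -0.66 to 0.13, edgeR adjusted p = 0.372). The ornithine decarboxylase gene odc1, the entry to the pathway, had 299, 459 and 234 CPM in ZMEL1 and 119, 187 and 104 CPM in ZMELR1 (log2 fold change -1.27, 95% interval -2.03 to -0.52, edgeR adjusted p = 0.0641 unblocked and 0.00236 blocked). The spermine synthase gene sms had 127, 122 and 54.0 CPM in ZMEL1 and 57.6, 62.6 and 20.9 CPM in ZMELR1. In sms replicate 3 was the lowest library of each line, and the lines overlapped (log2 fold change -1.10, edgeR adjusted p = 0.205 unblocked and 0.00434 blocked). The genes panx1b, odc1 and sms were chosen after their values were seen. None of 5 other Kir channels and 4 tjp scaffolds tested was called by edgeR, DESeq2, limma-voom or with the block, and 1 of the 9, a Kir channel, had an unadjusted p under 0.05.

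**Figure D3:**
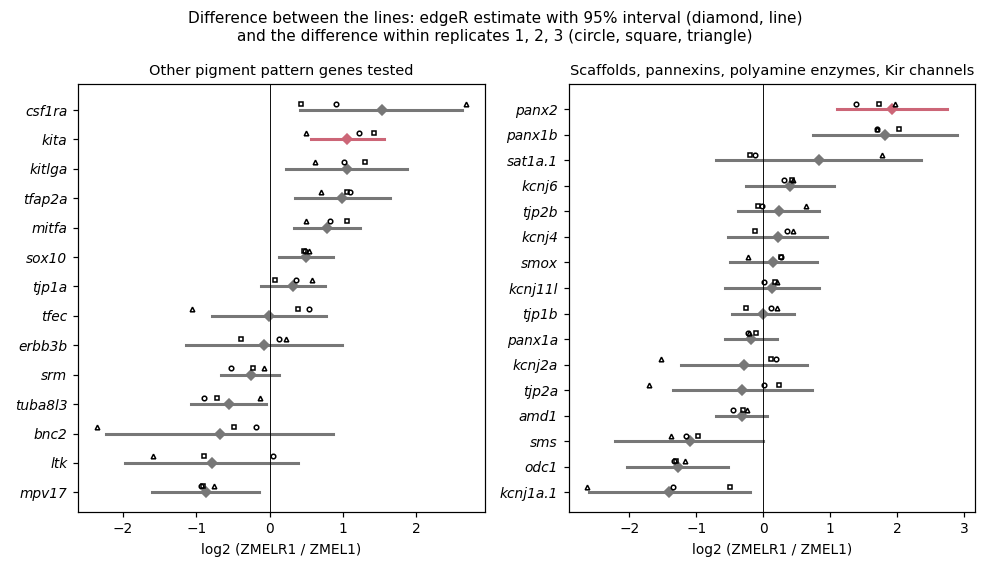
Difference between the lines (x axis, log2 of ZMELR1 over ZMEL1) for 14 other pigment pattern genes (left) and 16 partners of the members (right, without srm and tjp1a, which are on the left), where diamonds and lines are the edgeR log2 fold change and its 95% interval, red for a gene that rose and grey for one that did not pass, and small open circles, squares and triangles are the log2 CPM differences within replicates 1, 2 and 3. The genes kita and panx2 are the colored ones, and for odc1 the 3 within-number differences lie close together at -1.33, -1.30 and -1.17.

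The genes with a pattern most like kcnj13 and cx43 were sought among tested genes with a mean log2 CPM of at least 2. Likeness was the root mean square difference of log2 CPM, each gene centred on its mean over the 6 libraries. Nearest to kcnj13 among 9416 genes were bhlhe40, a transcriptional repressor of the clock, at 0.120, limk2, a kinase of the actin cytoskeleton, at 0.134, and zfp36l2, an RNA-binding protein that promotes decay of transcripts, at 0.153. For bhlhe40 the level was 14.1, 13.2 and 10.8 CPM in ZMEL1 and 26.9, 23.2 and 41.2 CPM in ZMELR1, which shares with kcnj13 the lowest value in ZMEL1 replicate 3 and the highest in ZMELR1 replicate 3. Nearest to cx43 among 9417 genes were proca1 at 0.285, the potassium channel tetramerization domain gene kctd4 at 0.469 and the LIM domain gene csrp1a at 0.506. For proca1 the level was 1270, 756 and 1480 CPM in ZMEL1 and 275, 125 and 303 CPM in ZMELR1, lowest in replicate 2 of each line as cx43 was. These likenesses rest on 6 libraries of 2 lines and are descriptions only.

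**Figure D4:**
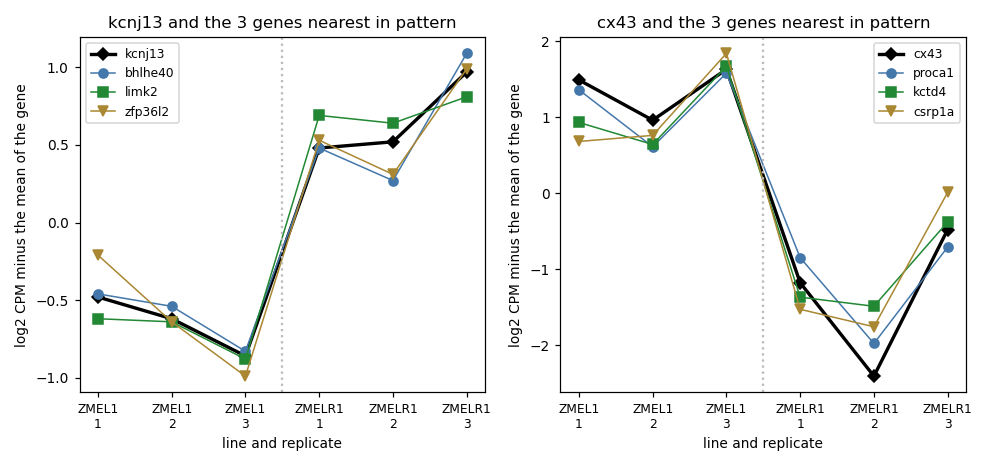
Log2 CPM minus the mean of each gene over the 6 libraries (y axis) in each library (x axis) for kcnj13 with its 3 nearest genes (left) and cx43 with its 3 nearest genes (right), the member in black, where lines only join the points of a gene, and the dotted line separates ZMEL1 from ZMELR1. The points of bhlhe40 follow those of kcnj13 with a root mean square difference of 0.120, and those of proca1 follow cx43 with 0.285.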

How the data were processed

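The deposited values are raw counts per gene name in 3 ZMEL1 and 3 ZMELR1 libraries, made by the authors with HTSeq and Ensembl gene models from TopHat2 alignments to Zv9 (61535449 to 83741911 counts, and 42591832 in ZMELR1 replicate 3). Strand use in counting is not given in the sources used here. Here edgeR 4.0.16 in R 4.3.3 was run on all genes kept by filterByExpr (least count 10, least total 15), with TMM factors, the quasi-likelihood test and Benjamini-Hochberg adjustment over 16589 genes. Standard errors and 95% intervals come from this fit, and log2 CPM used a prior count of 2. Limma-voom 3.58.1, DESeq2 1.42.0, other scalings and filters, the replicate block and fits without each library were alternatives.

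The pairing of libraries by replicate number was read from these same data, as the labels give only the numbers. Deviations of log2 CPM from the mean of the line correlated at 0.557, 0.588 and 0.509 between the same numbers and at -0.504 to -0.0285 between different ones. Each line was centred on its own mean, so positive values between the same numbers force the others to be negative on balance. The negative values are thus no separate support for the pairing. What a number shares is not stated. No library is a copy of another, since replicates differed by 185 to 329 times the chi-square that counting alone gives.

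The members, gene lists, naming rule and marker lists were chosen with earlier results of these data known. Named are the members (1 of the 9 is counted but not reported here), connexins called and the 3 others of highest CPM, called genes of the other lists with tjp1a, srm, csf1ra, mitfa and aqp3a, and the 3 genes nearest in pattern to each called member. The genes of cell division were picked after the data were seen. RefSeq (GRCz12tu) gave current names for the members and which genes neighbor or overlap them, and none of its coordinates were used.

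The fit was tested on simulated data. There edgeR without the block called 7 of 99 genes made to differ 2-fold and 68 of 98 made to differ 4-fold, with 10 false calls. A gene that did not pass may thus still differ 2-fold between the lines. Genome sequencing of the study was not analysed here. Figures were drawn with matplotlib 3.10.9.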

Additional observations from a re-analysis of the deposited data

How the results depend on the processing

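The 2 calls among the members (kcnj13 and cx43) also stood with RLE factors, with at least 1 count in total, with limma-voom and with the older quasi-likelihood fit, which was added after seeing the data, and with library size only, where 3 members were called. With at least 10 counts in every library cx43 and panx2 were not tested. There 1 member, 0 connexins, 0 stripe pattern genes and 0 partners were called, of 463 genes in all. With library size only 2 connexins and 0 stripe pattern genes were called. DESeq2 called 4 members (igsf11 among them), 3 connexins, 5 stripe pattern genes and 3 partners, of 2357 genes, and the replicate block gave 6, 5, 6 and 4, of 4127 genes. With 1 library left out at a time 0 to 2 members, 0 to 1 connexins, 0 to 4 stripe pattern genes, 0 to 1 partners and 306 to 1149 genes in all were called. Without replicate 3 of both lines the counts were 2 members, 1 connexin, 4 stripe pattern genes, 1 partner and 989 genes, the partner being sms (edgeR adjusted p = 0.028) in place of panx2 (0.0608), and with the block added 7, 7, 13, 7 and 8327, which is 50.0% of the genes tested with 2 libraries a line and is no basis for a call. Of 20 genes named and tested, the direction turned with a library left out for cx41.8 (log2 fold change -0.38 to 0.46), cx30.9 (-0.21 to 0.37) and cx40.8 (-0.58 to 1.39). Apart from left out libraries no direction turned, 139 values kept their side of the threshold, 17 came to pass it and 2, both of kita, no longer did (1.05 and 1.05 on the log2 scale). Of the named genes the block changed no other call than those given beside the results. The causes were not tested. Depth limits the 17 connexins under the filter, of which no difference was detectable.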
